A study of Rattus norvegicus with 2 samples.

Results

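Eph receptors are tyrosine kinases at the cell surface, and ephrins are their membrane-bound ligands. A list of 10 genes of this family was examined on the arrays of this series, and the members are the listed genes that had a named probe, 8 of the 15037 genes with one. These were the receptor genes Epha1, Epha2, Epha4 and Ephb2 and the ephrin genes Efna1, Efna5, Efnb1 and Efnb2. The listed receptor genes Ephb3 and Ephb4 had no named probe and were not analysed here. Of the 8 members, 2 were at least 1.5-fold lower on the array of cells given siRNAs against Tet2 and Tet3: Efnb1, 2.0-fold lower, and Epha2, 1.56-fold lower. The other 6 differed by less than 1.5-fold, and 0 were higher by that much. Of all 8103 named genes above a background floor, 13.2% were lower and 8.63% higher by 1.5-fold.

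Gene expression was measured in cultured epidermal keratinocytes of newborn rats, grown with 10% serum and 0.4 µg/mL hydrocortisone. The control group, whose label reads NC+VC, held 1 array, and the siTet2/3 group 1 array of cells that had received siTet2 and siTet3 RNAs at 1 µM each; control cells are described as non-treated, and whether they were given another siRNA is not said in the labels. Cells of both groups were given vitamin C for 12 h from 24 h after transfection, so the comparison is between control and siTet2/3 cells that had all received vitamin C, which promotes the activity of TET proteins, the enzymes that oxidise methylated cytosine at CpG sites (a cytosine followed by a guanine). The comparison asked which genes differ when Tet2 and Tet3 are targeted in that setting. Tet2 and Tet3 had 0 named probes each, so the knockdown itself was not checked here. No test can be made from 1 array per group, so "higher" and "lower" are statements about this pair of arrays.

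Binding between an ephrin on one cell and an Eph receptor on its neighbour sends a forward signal into the cell with the receptor and a reverse signal into the cell with the ephrin. A-type ephrins are held in the membrane by a lipid anchor and B-type ephrins cross it and end in a short tail inside the cell. A-type receptors mostly bind A-type ephrins and B-type receptors mostly bind B-type ephrins, with EPHA4 binding both. In the epidermis these contacts act in the adhesion, migration, growth control and differentiation of keratinocytes.

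TET proteins act on methylated CpG sites, so the promoter windows of 4 members are shown with every CpG site in capitals. Each window runs from 250 bases before to 50 bases after the start of the gene, 5′ to 3′, from RefSeq assembly GRCr8; 7 of the 8 members had an entry there, all but Epha4. Efnb1 and Epha2 are shown because they were the members past 1.5-fold. Efnb2 is shown as the other B-type ephrin among the members and Epha1 as another A-type receptor with few CpG sites. Neither of them passed that limit. The windows are chrX:68297279-68297578 (+ strand) for Efnb1, chr5:158888379-158888678 (+ strand) for Epha2, chr16:87484965-87485264 (+ strand) for Efnb2 and chr4:72227425-72227724 (- strand) for Epha1.
Efnb1: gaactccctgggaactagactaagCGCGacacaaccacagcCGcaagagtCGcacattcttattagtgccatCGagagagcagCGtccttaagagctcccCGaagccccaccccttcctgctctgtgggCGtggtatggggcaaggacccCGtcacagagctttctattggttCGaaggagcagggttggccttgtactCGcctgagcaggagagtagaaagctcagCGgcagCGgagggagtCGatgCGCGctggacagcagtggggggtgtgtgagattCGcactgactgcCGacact
Epha2: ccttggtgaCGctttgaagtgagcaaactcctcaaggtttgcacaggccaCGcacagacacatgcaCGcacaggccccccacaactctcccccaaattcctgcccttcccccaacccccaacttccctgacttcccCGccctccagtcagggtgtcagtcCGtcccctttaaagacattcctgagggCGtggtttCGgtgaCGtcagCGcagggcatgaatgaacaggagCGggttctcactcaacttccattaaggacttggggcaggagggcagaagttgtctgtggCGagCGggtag
Efnb2: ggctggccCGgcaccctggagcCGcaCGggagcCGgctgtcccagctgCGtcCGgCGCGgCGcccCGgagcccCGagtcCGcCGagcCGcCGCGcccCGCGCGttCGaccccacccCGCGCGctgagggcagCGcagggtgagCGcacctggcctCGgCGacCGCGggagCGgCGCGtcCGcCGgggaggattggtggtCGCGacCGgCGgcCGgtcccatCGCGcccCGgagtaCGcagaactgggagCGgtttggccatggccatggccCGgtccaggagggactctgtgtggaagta
Epha1: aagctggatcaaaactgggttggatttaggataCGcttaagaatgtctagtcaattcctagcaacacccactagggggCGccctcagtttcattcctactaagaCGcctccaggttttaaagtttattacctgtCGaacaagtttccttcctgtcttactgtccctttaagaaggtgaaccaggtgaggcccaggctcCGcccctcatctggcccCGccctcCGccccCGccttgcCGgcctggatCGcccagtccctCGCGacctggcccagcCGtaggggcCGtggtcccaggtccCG

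The Epha2 window held 12 CpG sites, the fewest of the 7 members with an entry, and the Epha1 window held 15. The Efnb1 window held 18 CpG sites, the Efna1 window 25, the Ephb2 and Efna5 windows 29 each and the Efnb2 window 45. Among 7150 promoters of genes above the background floor the median was 22 CpG sites, and 18.8% of them held fewer than the Epha2 window, 34.8% fewer than the Efnb1 window and 96.4% fewer than the Efnb2 window. The members lower by 1.5-fold were therefore on the lower side of that median. Epha1 lay there too and was slightly higher on the siTet2/3 array. The placement depends on the reference set. Among all 33469 promoters the median was 7 CpG sites. Of these, 62.9% held fewer than the Epha2 window and 72.5% fewer than the Efnb1 window. The observed number of CpG sites relative to that expected from the base composition was 0.48 for Epha2, 0.69 for Efnb1 and 1.00 for Efnb2. Methylation was not measured on these arrays.

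**Figure D1:**
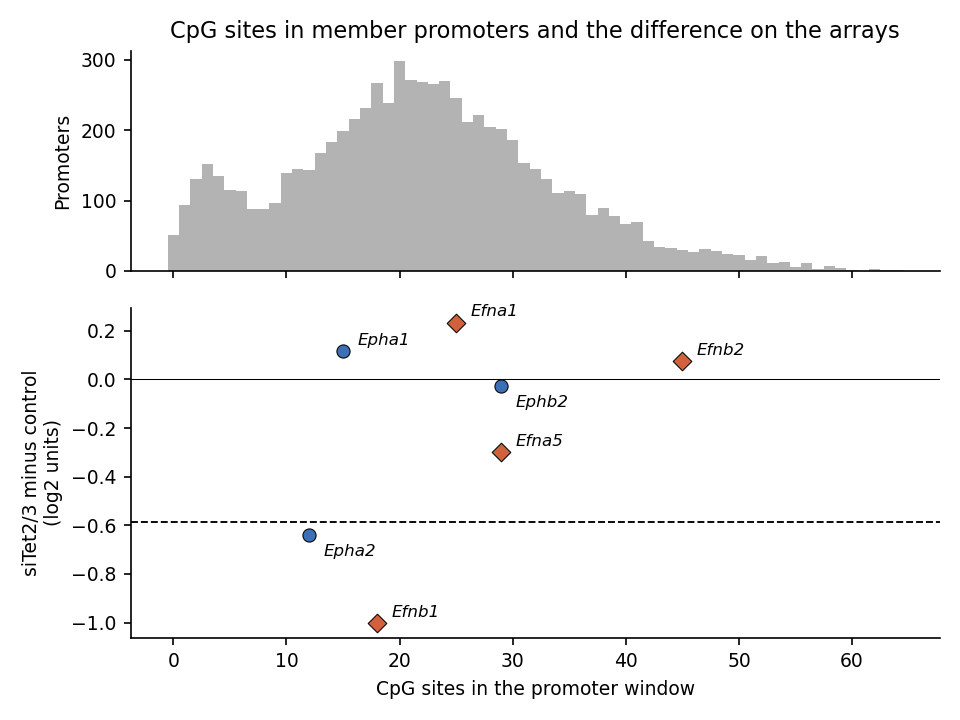
CpG sites in promoter windows of 300 bases. The upper panel gives the number of promoters (y axis) by CpG count (x axis) for 7150 genes above the background floor; the lower panel sets the siTet2/3 minus control difference (log2 units) of 7 members against their CpG count, with circles for receptors, diamonds for ephrins and a dashed line at 1.5-fold lower. Efnb1 with 18 sites and Epha2 with 12 lie below the dashed line, and the other 5 lie above it at 15 to 45 sites.

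Motifs were searched on both strands of the windows. GGGCGG, the GC box bound by SP1, which contains a CpG site, was found in 3 of the 7 windows, against 63.8% of the promoters of genes above the floor and 33.1% of all 33469 promoters in the table. It occurred 5 times in the Efna1 window, 3 times in the Epha1 window, at 53, 36 and 29 bases before the start, and 1 time in the Epha2 window, 115 bases before the start. CACGTG, the E-box, which also contains a CpG site, was found in the Efna5 window alone, against 9.71% of the promoters of genes above the floor. TGANTCA, the 7-base form of the AP-1 motif, and TATAAA, the TATA box, were found in 0 of the 7 windows, against 5.43% and 6.95%. Other forms of these motifs were not searched. These matches describe the letters of the windows only.

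All 8 members passed a background floor, set at 5.04 log2 units, on both arrays, and each was read by 1 probe set. The floor is the 95th percentile of 1206 chemoreceptor genes, such as olfactory receptors. A stricter floor taken from negative-control probes was 8.31 log2 units, and 6 members passed it; Epha1 and Ephb2 did not. Levels of different genes are not compared here, because each probe set has its own response. Some of the differences are given with a robust SD, a spread based on the median absolute deviation. It was taken over the differences of about 405 genes of similar level. That spread contains both array noise and true differences, and is no replicate error.

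**Figure D2:**
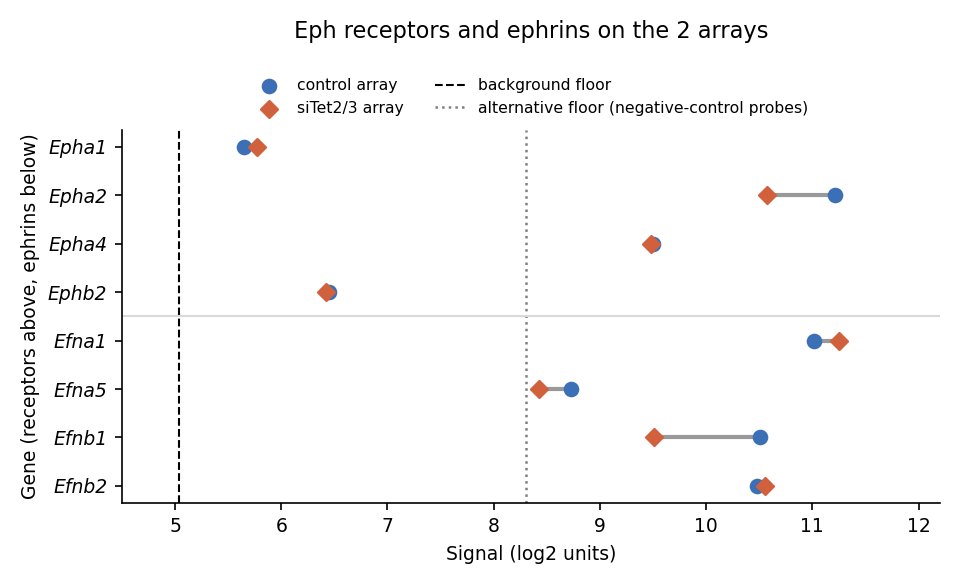
Signal (log2 units, x axis) of the 8 members (y axis, receptors above and ephrins below the line) on the control array (circles) and the siTet2/3 array (diamonds). The dashed line is the background floor of 5.04 and the dotted line the stricter floor of 8.31; each point is 1 array. The points of Efnb1 and Epha2 are the furthest apart, with the siTet2/3 array lower for both, and those of Epha4, Ephb2 and Efnb2 nearly coincide.

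Among the receptors, Epha2, which encodes the main Eph receptor studied in keratinocytes and is activated there by ephrin-A1, gave 11.21 log2 units in control cells and 10.57 in siTet2/3 cells. The difference was -0.64 log2 units, against a robust SD of 0.38. Of 8103 genes above the floor, 11.1% had a lower difference than Epha2. Its call was close to the limit: after centring on the median difference of all genes above the floor it was 1.502-fold lower.

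Epha4, which encodes a receptor that binds ephrins of both types, read 9.50 and 9.48 log2 units, a difference of -0.02. Epha1 gave 5.65 in control and 5.77 in siTet2/3 cells, close above the floor, a difference of 0.12 against a robust SD of 0.60. Ephb2, a receptor for B-type ephrins, read 6.45 and 6.42, a difference of -0.03. These 3 receptors were thus nearly level between the arrays, and the difference of Epha4 lay 0.62 log2 units above that of Epha2.

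Among the ephrins, Efnb1, which encodes the X-linked ligand ephrin-B1, had the largest difference of the 8 members. It gave 10.51 log2 units in control cells and 9.51 in siTet2/3 cells, a difference of -1.001 against a robust SD of 0.44. It ranked 245 from the lowest of the 8103 genes above the floor, and 3.01% of them had a lower difference. It was 1.93-fold lower after centring and 1.91-fold lower once a trend with signal level had been removed.

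Efnb2, which encodes the other B-type ephrin among the members, gave 10.48 in control and 10.55 in siTet2/3 cells, a difference of 0.07. The differences of Efnb1 and Efnb2 were 1.08 log2 units apart. Efna1, which encodes ephrin-A1, read 11.02 and 11.25, a difference of 0.23, opposite in sign to that of its receptor gene Epha2 and 0.87 log2 units above it. Efna5, which encodes another A-type ephrin, read 8.73 and 8.43, a difference of -0.30. The differences of Efna1, Efna5 and Efnb2 each lay within 1 robust SD of 0, as did those of Epha1, Epha4 and Ephb2, which makes 6 of the 8 members.

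As a group the members were spread to both sides of 0. The difference was below 0 for 5 members and above 0 for 3, with a median of -0.02 log2 units, beside a median of -0.05 over all 8103 genes above the floor. After centring, Epha4 and Ephb2 turned to 0.04 and 0.03, so that 3 members were below 0 and 5 above. The 2 of 8 members that were at least 1.5-fold lower stand beside a share of 13.2% of all genes above the floor, and the 0 higher ones beside 8.63%. With so few members the count does not set the family apart from other genes. At a 2-fold limit Efnb1 alone remained, where 3.05% of all genes above the floor were lower, and at a limit of 3 robust SDs 0 members remained, where 0.469% of those genes were lower.

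**Figure D3:**
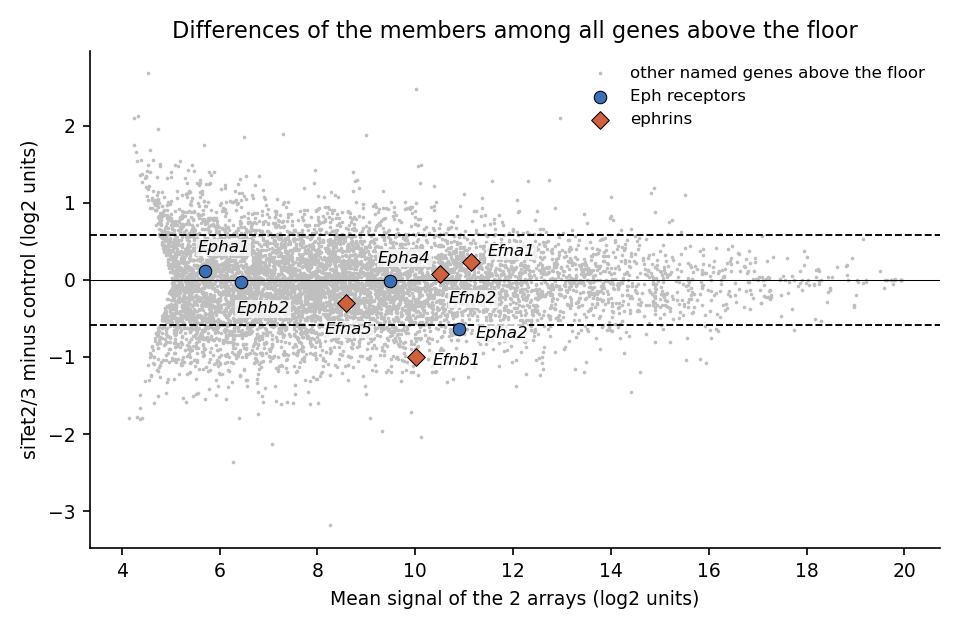
Difference between the arrays (siTet2/3 minus control, log2 units, y axis) against the mean signal of the 2 arrays (log2 units, x axis) for the named genes above the floor (grey), with receptors as circles and ephrins as diamonds. Dashed lines mark 1.5-fold in each direction. Efnb1 lies clearly below the lower dashed line and Epha2 just below it, and the other 6 members lie between the lines.

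Of 12 further Eph receptor and ephrin genes, 8 had a named probe and 2 of these passed the floor. Efna4, which encodes an A-type ephrin, gave 8.74 in control and 8.78 in siTet2/3 cells. Epha7, a receptor gene, read 6.74 and 6.89. Both differed by less than 1.5-fold. The genes Epha3, Epha5, Ephb1, Ephb6, Efna2 and Efnb3 lay under the floor on both arrays, so no fold is given for them. Epha3 was at 2.20 and 4.67 log2 units, the widest gap among these 6. In RefSeq GRCr8, Efna1, Efna3 and Efna4 follow one another on chromosome 2 with 0 other protein-coding genes between them; the measured pair, Efna1 and Efna4, differed by 0.23 and 0.03 log2 units.

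Genes that carry the signal of Eph receptors into the cell went both ways. Of 23 kinase, adaptor and phosphatase genes of forward signalling above the floor, 4 were higher by 1.5-fold or more, 3 were lower and 16 fell in between, with a median of 0.16 log2 units; the background shares were 8.63% higher and 13.2% lower. Src, a tyrosine kinase that acts downstream of both Eph receptors and B-type ephrins, was 2.25-fold lower (10.39 against 9.23 log2 units). Ptk2, the gene of focal adhesion kinase, was 1.73-fold lower (9.48 against 8.69), and the Src family kinase gene Lyn was 1.51-fold lower (8.19 against 7.59) but fell short of 1.5-fold after centring. Ptprf, which encodes a receptor tyrosine phosphatase, was 1.74-fold higher (8.32 against 9.11), the PI3-kinase subunit gene Pik3r1 1.64-fold (7.40 against 8.11), the ubiquitin ligase gene Cblb 1.63-fold (5.76 against 6.47) and Anks1a, which encodes an adaptor that binds Eph receptors, 1.56-fold (6.26 against 6.90).

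Above the floor were 12 genes of reverse signalling through B-type ephrins. Once dim values had been set to the floor, 2 were lower and 1 was higher. Of all genes above the floor, 11.8% were lower and 6.96% higher in that setting. The median of the list was -0.03. The 2 lower genes of the list were Src, listed above, and Sdcbp. Sdcbp, which encodes syntenin, a PDZ protein that binds the tail of B-type ephrins, was 2.29-fold lower (15.19 against 14.00 log2 units). Its difference of -1.19 compares with a robust SD of 0.27 in the top bin of level, which spans mean signals of 14.24 to 19.93 log2 units. Dvl1 and Cnksr1 had siTet2/3 values under the floor, and their bounds, at least 1.37-fold and 1.16-fold lower, did not reach 1.5-fold; as measured they would bring the lower genes to 4. Stat3, the gene of a transcription factor, was 1.52-fold higher (12.61 against 13.21).

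Of the proteases that cut Eph receptors or ephrins, 8 genes were above the floor. With values raised to the floor, 2 of them were lower and 0 higher. The shares of all genes were the same 11.8% lower and 6.96% higher, and the protease median was -0.10. Ncstn, which encodes the gamma-secretase subunit nicastrin, was 1.81-fold lower (7.98 against 7.12 log2 units). Mmp14, which encodes a membrane metalloproteinase that cleaves EPHA2, was 1.68-fold lower (8.15 against 7.41). The bound for Psen2, whose siTet2/3 value was under the floor, was 1.03-fold lower; as measured the count would be 3 and the median -0.28. Adam10, which encodes a sheddase of ephrins, read 12.29 and 12.40. Over the 4 genes above the stricter floor, which left out Ncstn and Mmp14, the protease median was -0.01.

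Junction and adhesion partners in epithelium had 1 of 9 genes lower, the tight junction gene Cldn4 (1.75-fold, 15.61 against 14.80 log2 units), and 1 higher, the tight junction scaffold gene Tjp1 (1.77-fold, 10.93 against 11.75), with a median of -0.03. The E-cadherin gene Cdh1 read 17.65 and 17.62. Of all genes above the floor, 13.2% were lower and 8.63% higher by 1.5-fold. For comparison, the other receptor tyrosine kinases had 37 genes with a named probe and 16 above the floor. Of these 16, 1 was lower and 3 were higher, beside the same shares, with a median of 0.17. Igf1r was 1.61-fold lower in that list, and Fgfr3, Met and Fgfr4 were higher, by 1.80-fold, 1.69-fold and, with the control array under the floor, at least 1.62-fold. Fgfr3 and Fgfr4 lay under the stricter floor of 8.31 log2 units on both arrays. The difference between the Eph receptors and the other receptor tyrosine kinases was not tested. The median of the other receptor tyrosine kinases was -0.06 with a floor 1 log2 unit higher.

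**Figure D4:**
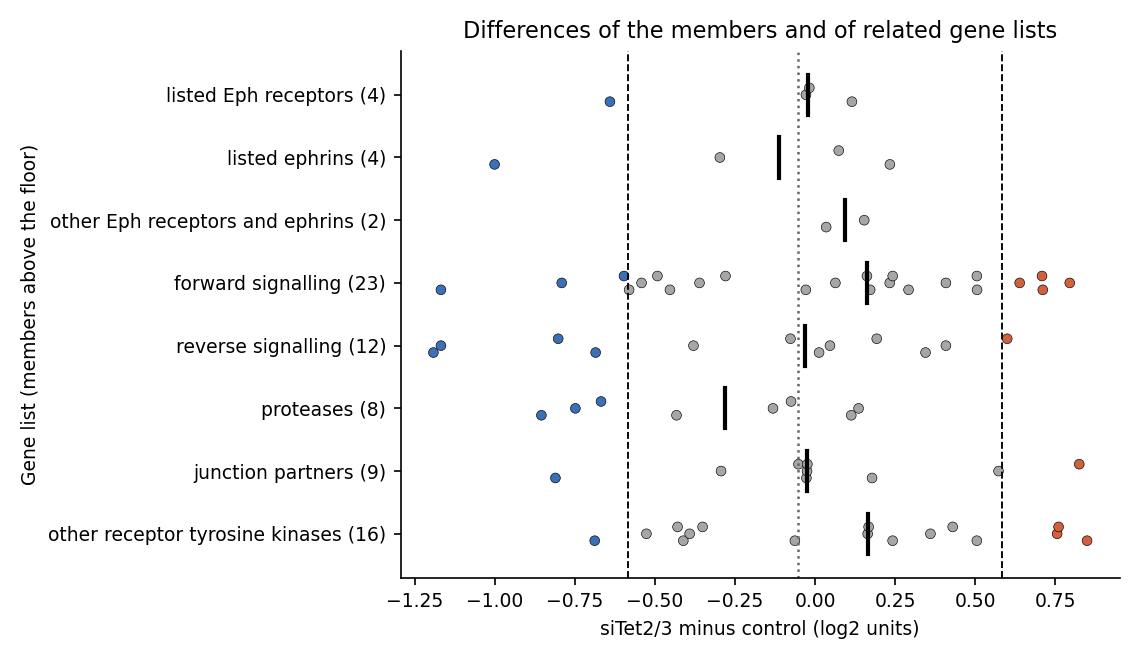
Differences (siTet2/3 minus control, log2 units, x axis) of the genes above the floor in each list (y axis, number of genes in parentheses), each point 1 gene, with differences as measured: blue at least 1.5-fold lower, orange at least 1.5-fold higher and grey neither. Black bars are list medians, dashed lines mark 1.5-fold and the dotted line is the median of all genes above the floor, -0.05. The points of every list lie on both sides of 0 except those of the 2 other family genes, and the lowest points belong to Sdcbp and to Src, which is in 2 lists.

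The cells carried keratinocyte markers: 9 of 13 had a named probe and all 9 were above the floor on both arrays, with Krt14 at 18.54 and 18.70 log2 units and Tp63 at 13.15 and 12.75. Of these 9, 0 were past 1.5-fold, and the largest difference was that of Krt1 (-0.45). Markers of other cells were mostly under the floor. Of 9 fibroblast markers 0 passed it, and of 10 endothelial markers 1 did, Tek (9.66 and 9.25), while the defining endothelial genes Pecam1 and Cdh5 did not. Acta2 was the 1 of 5 smooth muscle markers that passed (8.03 and 7.93), Mitf the 1 of 6 melanocyte markers (5.33 and 5.41), and Mbp and Ngfr the 2 of 4 Schwann cell markers, with differences of 0.13 and -0.36. Of 9 immune markers 7 were under the floor on both arrays, the defining gene Ptprc among them. The 2 that passed were both lower in siTet2/3 cells, Cd14 by 1.69-fold (9.31 against 8.55) and Cd68 with a difference of -0.28, and the part of immune cells in the lower Efnb1 and Epha2 signals was not tested. In a bulk sample, fewer cells of a type and less RNA per cell cannot be told apart.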

How the data were processed

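Total RNA was labelled with biotin and hybridised to 1 array per group. The authors deposited 1 log2 signal per probe set and array; the submitters' processing notes name RMA and the Transcriptome Analysis Console. Genome build, versions and settings: not given in the sources used. Values end at 19.93, above the usual range of scanner signals, so folds are those of the deposited scale; the highest member value was 11.25.

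Of 23188 gene probes, 15049 had 1 symbol, 0 several and 8139 none in the platform annotation; the mean was taken over probes of a gene. The siTet2/3 minus control difference was computed per gene in Python 3.11.15 (pandas 2.3.3). Genes were counted from a difference of 1.5-fold if the brighter of their values reached the floor. For a gene with 1 value under the floor, the brighter value relative to the floor is given as a bound. Robust SDs were taken in 20 bins of level; a lowess trend (span 0.3, statsmodels 0.14.6) was an alternative, as were no floor, 2 higher floors, values raised to the floor, centring, the brightest probe, a 2-fold limit, 3 robust SDs and means for medians. There were 0 columns of unknown samples.

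Named genes were all members, other family genes above the floor, and up to 4 genes per list and direction past 1.5-fold; genes named beside these (Adam10, Cdh1, Krt14, Tp63, Pecam1, Cdh5, Ptprc, Epha3 and single markers) were chosen afterwards. Members and lists were chosen with earlier results of these data known. A planned comparison of protein sequences was not run, and 1 planned gene list is not reported here.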

Additional observations from a re-analysis of the deposited data

How the results depend on the processing

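The count of higher members was 0 under all 9 alternatives. The 3 other floors, values raised to the floor and the brightest probe could not have raised it. Each member has 1 probe set and passed the main floor on both arrays. The 2-fold limit and the limit of 3 local robust SDs could not have raised the count either, since each is stricter for every member. Centring and removal of the trend could have raised it, and did not. The count of lower members was 2 under 7 of the 9; it was 1 with a 2-fold limit (Efnb1) and 0 with a limit of 3 local robust SDs, which 0.469% of all genes passed in that direction. Of those 7, the 3 other floors, values raised to the floor and the brightest probe could not change the count, since Efnb1 and Epha2 have 1 probe set each and lie above every floor tried; centring and the trend removed could, and each member kept its side of 1.5-fold under both. Medians of lists moved by 0.1 log2 units or more in 11 cases. The receptor median was -0.33 over the 2 receptors above the negative-control floor, and the mean was -0.14. The ephrin mean was -0.25. The forward signalling mean was 0.0063. The reverse signalling median was -0.38 over 5 genes above the negative-control floor, and the mean was -0.22. The protease median was -0.13 with a floor 1 log2 unit higher, -0.0092 with the negative-control floor and -0.10 with values raised to the floor. The median of the other receptor tyrosine kinases was -0.063 and -0.24 with these 2 higher floors. Centring turned the sign of 3 medians close to 0, to 0.03 for Eph receptors, 0.02 for reverse signalling and 0.03 for junction partners. The higher floors leave fewer genes; the cause of other shifts was not tested. No array could be left out, and no paired analysis was possible because each group had 1 array. The number of arrays limits every value here, and signals near 5.04 log2 units cannot be told from background.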

Other observations

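The measured genes next to the members on the chromosomes, taken by position alone, had differences on both sides of 0. They include the ephrin gene Efna4, given above. For each member the nearest gene above the floor on each side was taken from RefSeq GRCr8, with 0 to 29 protein-coding genes between, which gave 15 neighbours; none was found on the far side of Efnb2. Of these 15, 4 were at least 1.5-fold lower and 0 higher, beside 13.2% and 8.63% of all genes above the floor, with a median of -0.10 log2 units. Efnb1 lay between Yipf6, which gave 9.90 in control and 10.33 in siTet2/3 cells, and Pja1, which encodes a ubiquitin ligase and was 1.94-fold lower (6.62 against 5.66), with 1 gene between on each side. Epha2 lay between Szrd1 (10.99 and 10.90), with 4 genes between, and Zbtb17, with 5 between, which encodes the transcription factor MIZ-1 and was 1.76-fold lower (5.93 against 5.12). Chpf, separated from Epha4 by 6 genes, was 1.82-fold lower and Nudt12, separated from Efna5 by 1, was 1.67-fold lower, while Epha4 and Efna5 themselves differed by less than 1.5-fold.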
